A study of Mus musculus with 15 samples.

Results

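Tmprss11a, Cdkl4, Inmt and Stk32a are 4 genes that were bright in normal mouse choroid plexus and much dimmer in one or both of the choroid plexus tumour types. They were picked from a table of 22180 genes as being among the largest falls of carcinoma or papilloma against normal tissue, leaving out genes of the cilia and transporter families. Because the differences against normal tissue chose them, those differences are given here as a description without a test. Each of the 4 was read by 1 probe set that is paired with its symbol alone: 17449251 for Tmprss11a on chromosome 5, 17347558 for Cdkl4 on chromosome 17, 17467062 for Inmt on chromosome 6 and 17350171 for Stk32a on chromosome 18.

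The data are 15 single-channel Affymetrix arrays of total RNA, 1 tissue sample each, with 5 carcinomas, 5 papillomas and 5 samples of normal choroid plexus from different mice of mixed C57Bl/6 and 129 background. Carcinomas came from Atoh1-Cre; Myc/Myc; p53fl/fl mice and papillomas from Atoh1-Cre; Myc/Myc mice, while normal tissue came from Myc/Myc; p53fl/fl mice without Cre. All groups therefore carried the Myc allele, and the normal mice shared the floxed p53 allele with the carcinoma mice but not with the papilloma mice. Cre was under the control of Atoh1, so it acts only in cells that have used that gene's regulatory sequence. Tumours were taken when the mice showed signs of disease, and the ages of the animals are not given in the labels. Values are log2 intensities, on which a step of 1 is a doubling, and the array medians lay between 6.79 and 6.90.

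The choroid plexus is a sheet of epithelium around a vascular stroma in the brain ventricles that secretes cerebrospinal fluid. Its epithelial cells carry tufts of cilia, and the ventricle wall beside it is lined by multiciliated ependymal cells. The 4 genes are enzymes of different kinds. Tmprss11a encodes a type II transmembrane serine protease of the HAT/DESC group, known mainly from the surface epithelia of the airways and upper digestive tract. Cdkl4 encodes a cyclin-dependent-kinase-like protein kinase. Inmt encodes indolethylamine N-methyltransferase, which moves a methyl group from S-adenosylmethionine to tryptamine and other small molecules. Stk32a encodes a serine/threonine kinase of the STK32 (YANK) group, known in mice from the orientation of sensory hair cells of the inner ear.

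Promoter sequences are shown for the 3 genes that were low in both tumour types, because the results turn on transcripts that were low together, and their starts can be read side by side. Each runs from 250 bases before the annotated start to 50 bases after it, 5′ to 3′ on the gene's strand, from RefSeq on build GRCm38.p6. Capitals mark the 2 motifs that were found, TATAAA (the TATA box) and GTTGCC (part of the X-box read by RFX factors). The motifs were chosen after the sequences had been seen. All 3 genes lie on the minus strand, at chr5:86468941-86469240 for Tmprss11a, chr17:80577435-80577734 for Cdkl4 and chr6:55174941-55175240 for Inmt.
Tmprss11a: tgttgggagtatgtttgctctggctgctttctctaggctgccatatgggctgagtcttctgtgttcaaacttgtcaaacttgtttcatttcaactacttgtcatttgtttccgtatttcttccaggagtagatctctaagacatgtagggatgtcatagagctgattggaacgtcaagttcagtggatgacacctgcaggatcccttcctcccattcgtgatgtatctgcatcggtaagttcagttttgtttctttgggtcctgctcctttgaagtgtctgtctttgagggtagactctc
Cdkl4: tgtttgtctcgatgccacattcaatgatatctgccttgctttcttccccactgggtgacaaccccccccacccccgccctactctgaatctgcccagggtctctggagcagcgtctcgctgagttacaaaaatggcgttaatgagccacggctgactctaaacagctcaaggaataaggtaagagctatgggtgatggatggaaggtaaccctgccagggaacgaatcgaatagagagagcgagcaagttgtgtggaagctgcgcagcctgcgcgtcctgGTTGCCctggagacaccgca
Inmt: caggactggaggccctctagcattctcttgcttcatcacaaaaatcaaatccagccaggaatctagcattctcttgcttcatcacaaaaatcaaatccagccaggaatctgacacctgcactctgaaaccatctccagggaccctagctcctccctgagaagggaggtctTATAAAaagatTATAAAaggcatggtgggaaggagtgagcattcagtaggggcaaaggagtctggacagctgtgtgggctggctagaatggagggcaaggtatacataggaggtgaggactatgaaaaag

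No motif searched was shared by any pair of the 3 promoters. GTTGCC was found in the Cdkl4 window, at base 31 after the start, and TATAAA at 2 places in the Inmt window, at -80 and -69. Neither motif, nor the E-box CACGTG, was found on either strand of the Tmprss11a window or of the window at a second annotated Cdkl4 start. Of 32851 mouse promoters of the same length, 12.5% held GTTGCC or its complement GGCAAC, 13.6% held TATAAA or TTTATA and 7.15% held CACGTG, which reads the same on both strands. The Cdkl4 window had 13 CpG pairs and 54.7% G and C, against 4 CpG and 44.3% for Tmprss11a and 0 CpG and 47.7% for Inmt. Over all promoters the medians were 7 CpG and 52.7%. The matches describe these windows and say nothing of which factors act there.

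Some arrays stood apart from the rest. Normal arrays 2 to 5 held both Xist, the transcript of the inactive X chromosome (10.69 to 12.48), and the Y-linked transcripts Uty, Eif2s3y and Kdm5d (7.28 to 10.44), while normal array 1 and each of the 10 tumour arrays held one kind or the other. The pituitary hormone transcript Prl measured 5.34 to 5.45 in carcinoma and 5.32 to 7.74 in papilloma, against 6.48, 7.48, 10.75, 8.03 and 11.57 on normal arrays 1 to 5. Papilloma arrays 2 and 4 had the highest means over 8 neuron markers among the tumours, at 9.66 and 8.89, against 7.61 to 7.91 on the other 3 papilloma arrays. Results for the 4 genes are given below with and without papilloma arrays 2 and 4 and normal arrays 3 and 5, a choice made after seeing the data.

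Tmprss11a was at or near the top of the falls in both tumour types. In papilloma its difference of -5.39 was next to that of Iqub (-5.38), so their order is not resolved. It measured 5.84, 4.94, 5.73, 5.60 and 5.47 on carcinoma arrays 1 to 5, 5.51, 5.25, 6.08, 5.68 and 6.08 on papilloma arrays 1 to 5, and 10.94, 11.13, 11.16, 11.09 and 11.25 on normal arrays 1 to 5. The tumour arrays formed one low band and the normal arrays one high band, with 5.10 log2 units between carcinoma and normal and 4.86 between papilloma and normal where they came closest. The means were 5.52 ± 0.35 in carcinoma, 5.72 ± 0.36 in papilloma and 11.11 ± 0.12 in normal tissue (SD, n = 5 each). The difference from normal tissue was -5.60 in carcinoma (SE 0.17, 48.4-fold lower) and -5.39 in papilloma (SE 0.17, 42.0-fold lower). In bulk tissue such a difference cannot tell fewer cells of a type from less RNA per cell.

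All 10 tumour values of Tmprss11a lay in the range of dim probe sets. As a guide to that range, the 95th percentile of 1105 olfactory receptor genes was 6.61 to 6.84 over the arrays, and no tumour array of Tmprss11a exceeded its own array's percentile. The folds above are therefore measured against values that may be background of the array rather than transcript. The tumour types themselves differed by -0.20 for carcinoma minus papilloma (SE 0.17, 95% interval -0.57 to 0.17, limma adjusted p = 0.527), with overlapping values. With both groups in the dim range and the gene picked for its falls, this test cannot show that the tumour types are alike. In that comparison 11.4% of all genes passed the threshold of adjusted p 0.05, with 6.24% higher and 5.17% lower in carcinoma.

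Cdkl4 followed the same pattern, with a narrower spread in the tumours. It measured 6.34, 5.91, 6.48, 5.97 and 5.89 on the carcinoma arrays, 6.36, 6.09, 6.43, 6.28 and 6.54 on the papilloma arrays, and 10.94, 10.85, 10.67, 10.97 and 10.67 on the normal arrays. Again every tumour array lay below every normal array and below its own dim percentile. The means were 6.12 ± 0.27 in carcinoma, 6.34 ± 0.17 in papilloma and 10.82 ± 0.14 in normal tissue (SD, n = 5 each), a difference of -4.70 in carcinoma (SE 0.12, 26.0-fold lower) and -4.48 in papilloma (SE 0.12, 22.3-fold lower). Carcinoma minus papilloma was -0.22 (SE 0.12, 95% interval -0.48 to 0.04, limma adjusted p = 0.299) and did not pass the test. As Cdkl4 too was picked for its falls and was dim in both tumour types, this does not show that they are alike.

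Inmt kept values above the dim range in most tumours. It measured 7.71, 6.46, 7.39, 6.54 and 7.32 on the carcinoma arrays, 6.69, 7.01, 7.28, 7.35 and 7.54 on the papilloma arrays, and 11.47, 11.10, 11.40, 11.11 and 11.13 on the normal arrays. Carcinoma arrays 2 and 4 were the lowest, and 3 of 5 carcinoma arrays and 5 of 5 papilloma arrays exceeded their own dim percentile. Carcinoma arrays 2 and 4 also had the highest means over the macrophage markers, at 8.29 and 8.48, against 7.64 to 7.69 on the other carcinoma arrays. The part of macrophages in the Inmt values was not tested. The means were 7.09 ± 0.55 in carcinoma, 7.17 ± 0.33 in papilloma and 11.24 ± 0.18 in normal tissue (SD, n = 5 each). The difference from normal tissue was -4.15 in carcinoma (SE 0.22, 17.8-fold lower) and -4.07 in papilloma (SE 0.22, 16.8-fold lower), and carcinoma minus papilloma was -0.09 (95% interval -0.56 to 0.39).

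Stk32a differed from the other 3 genes in its order: it was lowest in papilloma and intermediate in carcinoma. It measured 8.95, 8.97, 9.02, 9.29 and 10.09 on the carcinoma arrays, 6.04, 7.43, 6.26, 6.63 and 5.83 on the papilloma arrays, and 10.87, 11.14, 11.11, 11.18 and 11.26 on the normal arrays. The 3 groups did not overlap, with 1.52 log2 units between the lowest carcinoma and the highest papilloma and 0.77 between the highest carcinoma and the lowest normal array. The means were 9.27 ± 0.48 in carcinoma, 6.44 ± 0.63 in papilloma and 11.11 ± 0.15 in normal tissue (SD, n = 5 each).

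The difference of Stk32a from normal tissue was -1.85 in carcinoma (SE 0.26, 3.60-fold lower) and -4.68 in papilloma (SE 0.26, 25.6-fold lower). Carcinoma minus papilloma was 2.83 (SE 0.26, 95% interval 2.27 to 3.39, 7.11-fold higher in carcinoma), given without a test because the gene was picked for its fall in papilloma. All 5 carcinoma arrays and 1 of 5 papilloma arrays, array 2, exceeded their dim percentile. The 2 highest papilloma values, on arrays 2 and 4, came from the arrays with the high neuron markers. Without them papilloma minus normal was -5.07 and carcinoma minus papilloma 3.22, and the part of neural tissue in these values was not tested.

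**Figure D1:**
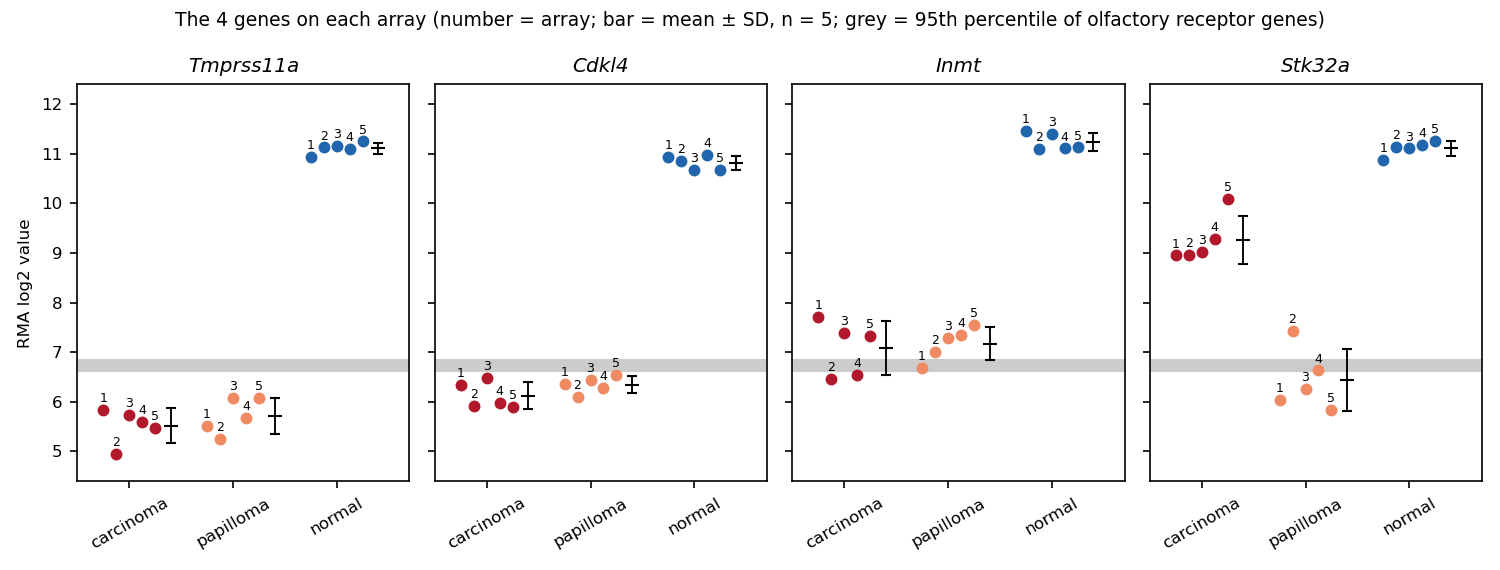
Log2 value of each of the 4 genes on every array, in carcinoma, papilloma and normal tissue (5 arrays each, numbered), with the mean ± SD beside the points and a grey band for the 95th percentile of olfactory receptor genes (6.61 to 6.84). Tmprss11a and Cdkl4 lie below the band in every tumour, Inmt lies from just below to just above it, and Stk32a alone separates carcinoma (8.95 to 10.09) from papilloma (5.83 to 7.43).

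The spread of the 4 genes was small in normal tissue and wider in the tumours. The labels do not say whether a normal sample held tissue of more than 1 mouse, but normal arrays 2 to 5 held transcripts of both sexes. The normal SDs, and the SEs that use them, may therefore not describe single animals. The part of these mixed sex-linked transcripts in the smaller spread was not tested. The SDs of the 4 genes were 0.12 to 0.18 in normal tissue, near the median of 0.12 over all genes. In carcinoma the SDs of 0.27 to 0.55 all exceeded the median of 0.19 over genes, and in papilloma those of 0.17 to 0.63 exceeded the median of 0.15. Among 2924 falls in carcinoma and 2832 in papilloma that passed the threshold with no overlap of the groups, predicted genes left out, Tmprss11a, Cdkl4, Inmt and Stk32a ranked 1, 3, 8 and 264 in carcinoma and 1, 8, 25 and 6 in papilloma. Just outside the first 8 were Rmst, a long non-coding RNA, in carcinoma (-4.04, after Inmt at -4.15) and Mlf1 in papilloma (-4.48, after Cdkl4 at the same printed value). Non-overlap as such was common, since every carcinoma array lay below every normal array in 15.2% of genes and every papilloma array below every normal array in 15.8%.

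Without normal arrays 3 and 5, carcinoma minus normal was -5.53 for Tmprss11a, -4.80 for Cdkl4, -4.14 for Inmt and -1.80 for Stk32a. Papilloma minus normal was then -5.33, -4.58, -4.05 and -4.63 for the 4 genes in the same order. Without papilloma arrays 2 and 4, papilloma minus normal was -5.22 for Tmprss11a, -4.38 for Cdkl4 and -4.07 for Inmt. No alternative left out all of normal arrays 2 to 5.

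The HAT/DESC relatives of Tmprss11a were dim in every group, normal tissue included, so a fall of theirs could not have been seen. None of the other 6 measured genes of its HAT/DESC group, Tmprss11b to Tmprss11g, passed the test in any comparison (limma adjusted p 0.135 or more), and their group means were 4.24 to 5.37. Of 20 measured transmembrane serine proteases and their inhibitors, 12 lay below the dim percentile on every normal array. A fall of those 12 could not have been seen either, which limits the counts and medians of this list. In carcinoma 1 of the 20 rose and 2 fell. Of all genes, 37.9% passed the threshold there, 18.7% higher and 19.2% lower. In papilloma 3 of the 20 rose and 2 fell, against 33.2% of all genes passing, 17.0% higher and 16.3% lower. The median difference of the 20 was -0.03 in carcinoma and -0.00 in papilloma, beside -0.02 and 0.01 over all genes.

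The 2 genes that fell were the inhibitors of this protease class. Spint1, which encodes the Kunitz-type inhibitor HAI-1, measured 6.78 in carcinoma and 6.65 in papilloma, against 8.40 in normal tissue, and fell by 1.62 on the log2 scale in carcinoma (limma adjusted p = 2.23e-06) and fell by 1.75 in papilloma (adjusted p = 1.2e-06). Spint2, which encodes the related HAI-2, was bright throughout at 11.61 in carcinoma, 11.87 in papilloma and 12.77 in normal tissue, with differences of -1.16 in carcinoma and -0.90 in papilloma (adjusted p = 1.12e-07 and 2.15e-06). St14, which encodes matriptase, a protease these inhibitors block, rose by 0.85 in papilloma (adjusted p = 0.00338) and measured 0.24 above normal tissue in carcinoma (adjusted p = 0.39).

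The remaining calls among the proteases were fragile. Tmprss6, which encodes matriptase-2, a regulator of hepcidin in the liver, rose by 0.84 in carcinoma (limma adjusted p = 0.0365), a call lost on removing any one of normal arrays 1 to 4 or of carcinoma arrays 2, 3 and 5 (0.61 to 0.87, adjusted p = 0.0543 to 0.0982). Tmprss2 rose by 0.43 in papilloma (adjusted p = 0.035), lost on removing normal 2, 4 or 5 or papilloma 3 or 5 (0.31 to 0.44, adjusted p = 0.0529 to 0.0955). Tmprss13 rose by 0.24 in papilloma (adjusted p = 0.0338), lost on removing normal 3, 4 or 5 or papilloma 1, 3 or 4 (0.19 to 0.25, adjusted p = 0.0568 to 0.0966). Markers of squamous epithelium, the tissue type in which the HAT/DESC group is best known, averaged 6.49 to 6.74 over 5 genes in carcinoma and 6.62 to 6.85 in papilloma, against 6.50 to 6.74 in normal tissue. Of these 5 genes 1 rose in papilloma, Trp63 (0.38, adjusted p = 0.000866), and none fell in either tumour type. As 2 of the 5 lay below the dim percentile on every normal array and the list means were near it, a fall could hardly have been seen. Of all genes, 17.0% rose in papilloma, and 19.2% fell in carcinoma and 16.3% in papilloma.

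Among the kinases related to Cdkl4, no measured CDKL gene differed from normal tissue by 1 log2 unit, and the RCK kinases changed in both directions. Of 7 measured CDKL and RCK kinases, 1 rose and 3 fell in carcinoma and 1 rose and 2 fell in papilloma, with a median difference of -0.36 and -0.31, against 37.9% and 33.2% of all genes called. Mak, which encodes a kinase that limits the length of cilia in photoreceptors of the mouse retina, measured 7.22 in carcinoma and 6.65 in papilloma, against 10.40 in normal tissue. It fell by 3.18 on the log2 scale in carcinoma (SE 0.32, limma adjusted p = 8.72e-07) and fell by 3.74 in papilloma (SE 0.32, adjusted p = 1.78e-07). Mok also fell, with differences of -1.46 in carcinoma and -1.38 in papilloma (adjusted p = 5.63e-06 and 1.26e-05).

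Cilk1, formerly Ick, another kinase of the RCK group that acts in cilia, went the other way. It measured 10.18 in carcinoma and 10.21 in papilloma, against 9.37 in normal tissue, and rose by 0.82 and 0.84 (limma adjusted p = 1.89e-08 and 1.59e-08). Of the CDKL genes, Cdkl2 fell by 0.73 on the log2 scale in carcinoma (adjusted p = 0.000221) and measured -0.31 in papilloma (adjusted p = 0.0752). Cdkl1 and Cdkl3 did not pass the test in either tumour type (differences of -0.34 and 0.01 in carcinoma and -0.07 and -0.13 in papilloma).

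Among the methyltransferases related to Inmt by reaction, calls were made in both directions, as they were over all genes (18.7% higher and 19.2% lower in carcinoma, 17.0% and 16.3% in papilloma). Of 9 measured genes, 3 rose and 2 fell in carcinoma and 4 rose and 1 fell in papilloma, with a median difference of 0.18 and 0.14. Gamt, which encodes the enzyme that makes creatine, rose by 2.53 in carcinoma (SE 0.14, 5.78-fold, limma adjusted p = 1.71e-09) and by 3.12 in papilloma (SE 0.14, 8.67-fold, adjusted p = 1.67e-10). Pemt, which makes phosphatidylcholine by methylation, rose by 0.56 and 0.66 (adjusted p = 0.000301 and 8.51e-05). Hnmt, which inactivates histamine, measured 7.11 in carcinoma and 8.43 in papilloma, against 9.37 in normal tissue.

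Hnmt fell by 2.27 on the log2 scale in carcinoma (SE 0.33, limma adjusted p = 4.12e-05) and fell by 0.94 in papilloma (adjusted p = 0.0384), but the papilloma call ended without any one normal array or papilloma array 1, 3 or 4 (-0.96 to -0.87, adjusted p = 0.0591 to 0.0838). Nnmt, the nicotinamide methyltransferase closest to Inmt in the human and mouse gene families, rose by 0.38 in carcinoma (adjusted p = 0.0146) and measured -0.09 in papilloma (adjusted p = 0.61), with group means of 6.20 to 6.67. As3mt, the arsenic methyltransferase, fell by 0.61 on the log2 scale in carcinoma (adjusted p = 0.0409), lost on removing any normal array or carcinoma 2 or 5 (-0.63 to -0.42, adjusted p = 0.0615 to 0.112). Tpmt rose by 0.82 in papilloma (adjusted p = 0.0257), lost on removing normal 3, 4 or 5 or papilloma 2 or 4 (0.75 to 0.80, adjusted p = 0.0502 to 0.0627). Gnmt rose by 0.56 in papilloma (adjusted p = 0.0262), lost on removing normal 4 or papilloma 3 or 4 (0.47 to 0.53, adjusted p = 0.0592 to 0.0749).

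The genes around the amines and the methyl donor that Inmt uses were taken as a further list. Of 9 measured, 3 rose and 1 fell in carcinoma and 4 rose and 0 fell in papilloma, with a median difference of 0.10 and 0.07. Over all genes 18.7% rose and 19.2% fell in carcinoma, and 17.0% and 16.3% in papilloma. The genes of the list that rose were of the methyl cycle and of amine breakdown. Ahcy, which clears the S-adenosylhomocysteine left by methylation, measured 10.59 in carcinoma and 10.66 in papilloma, against 8.71 in normal tissue, and rose by 1.88 and 1.96 (limma adjusted p = 8.46e-05 and 6.95e-05). Over the alternatives the rises of Ahcy ran from 1.36 to 2.17 in carcinoma and from 1.22 to 2.10 in papilloma. Mat2b, the regulatory subunit of S-adenosylmethionine synthase, rose by 0.56 and 0.42 (adjusted p = 9.92e-05 and 0.00161), and Maoa, a monoamine oxidase, by 0.62 and 0.56 (adjusted p = 0.00564 and 0.0118).

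Maob, the other monoamine oxidase, rose by 0.83 in papilloma (limma adjusted p = 0.00621) and measured 0.35 above normal tissue in carcinoma (adjusted p = 0.231). Ddc, which makes tryptamine from tryptophan, differed by 0.02 in carcinoma and -0.01 in papilloma (adjusted p = 0.947 and 0.978). The gene that fell in carcinoma was Tph1, tryptophan hydroxylase (-0.22, adjusted p = 0.0273). Its values were in the dim range and the call was lost on removing normal 2 or 5 or carcinoma 3 (-0.22 to -0.16, adjusted p = 0.0508 to 0.0743).

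Neither of the other 2 STK32 kinases had the pattern of Stk32a. Stk32c measured 7.03 in carcinoma and 6.99 in papilloma, against 7.34 in normal tissue, and fell, with differences of -0.31 and -0.35 (limma adjusted p = 0.00319 and 0.00135). Stk32b measured 6.20 to 6.28 in the 3 groups and did not pass the test (adjusted p 0.743 or more). It was in the dim range in every group, normal tissue included, so a fall of Stk32b could not have been seen. Stk32c lay little above that range, which left it little room to fall. Carcinoma minus papilloma was 0.04 for Stk32c and -0.02 for Stk32b (adjusted p = 0.781 and 0.961). In that comparison 1 of the 20 proteases and inhibitors was higher in carcinoma, 1 of the 7 CDKL and RCK kinases was lower, and of the 9 methyltransferases 1 was higher and 3 were lower. Over all genes 6.24% were higher in carcinoma than in papilloma and 5.17% were lower.

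**Figure D2:**
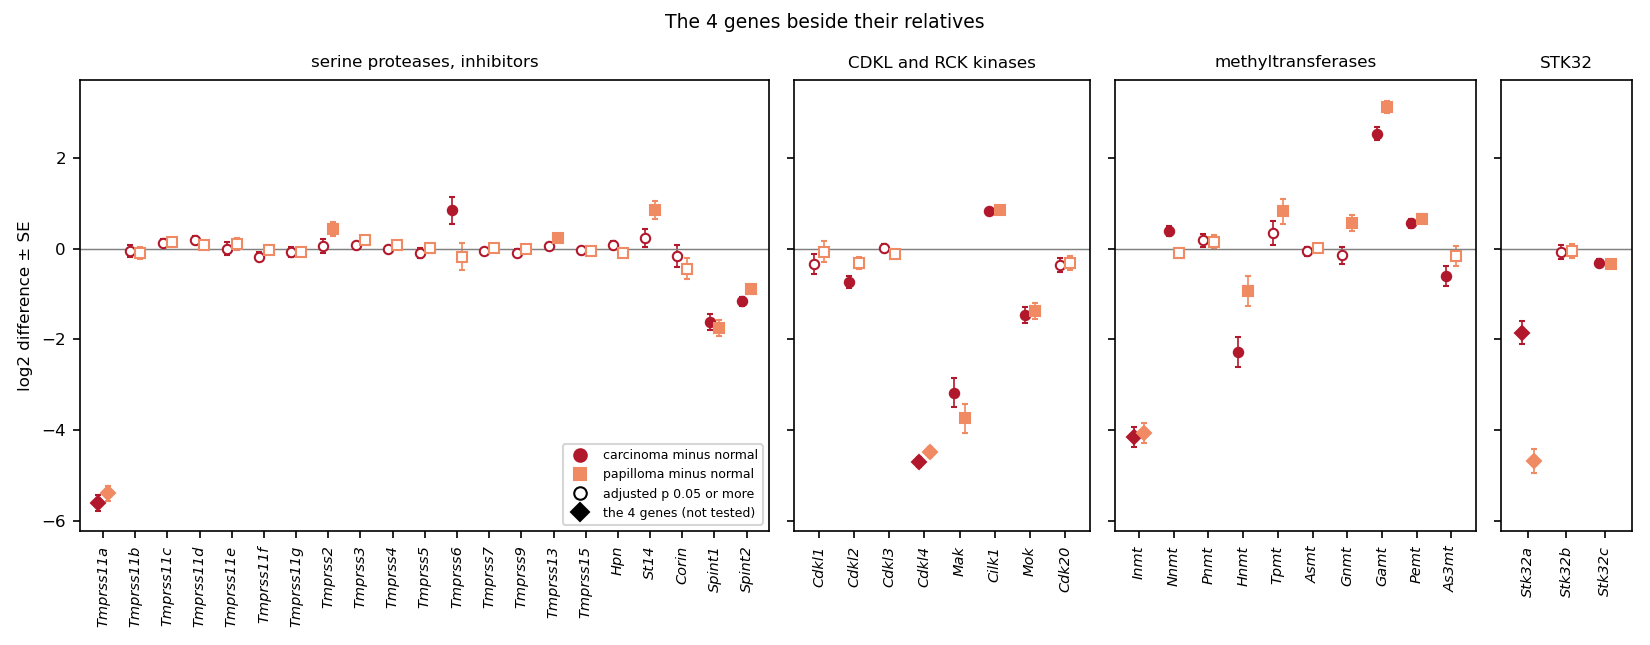
Log2 difference from normal tissue with its SE for the 4 genes (diamonds, not tested) and their relatives, carcinoma in red and papilloma in orange, with filled symbols where the limma adjusted p is under 0.05. Tmprss11a stands 5.39 to 5.60 below 0 beside HAT/DESC genes that were dim in every group, Mak is the relative nearest to Cdkl4 (-3.18 and -3.74), and Gamt (2.53 and 3.12) lies far above 0 beside Inmt.

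Most of the genes next to the 4 on their chromosomes did not pass the test. Of the 24 nearest measured genes, 3 on each side, 4 rose and 4 fell in carcinoma and 3 rose and 2 fell in papilloma, where 37.9% and 33.2% of all genes passed. Their median differences were 0.01 and -0.03. Around Tmprss11a none of the 6 neighbours passed: its relatives Tmprss11c, Tmprss11d, Tmprss11g, Tmprss11f and Tmprss11b, and Gnrhr, the receptor for gonadotropin-releasing hormone (5.29 in carcinoma, 5.31 in papilloma and 5.31 in normal tissue). All 6 were in the dim range in normal tissue too, where a fall could not have been seen.

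Beside Cdkl4, the non-coding RNA gene C230072F16Rik was low in the same tumours. It measured 5.61 ± 0.40 in carcinoma and 5.53 ± 0.35 in papilloma, against 9.30 ± 0.52 in normal tissue (SD, n = 5 each), and fell by 3.69 on the log2 scale in carcinoma (SE 0.25, 12.9-fold, limma adjusted p = 9.9e-09) and fell by 3.77 in papilloma (SE 0.25, 13.6-fold, adjusted p = 9.07e-09). All its tumour values (4.94 to 6.04) were in the dim range, so these folds are against values that may be background. It is the first measured gene on that side, with 4 further RefSeq genes in between that were not analysed here. On the other side Sos1, an exchange factor for Ras, differed by 0.06 and 0.02 (adjusted p = 0.635 and 0.894). Thumpd2, farther along, rose by 0.43 and 0.56 (adjusted p = 0.000581 and 6.55e-05).

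Beside Inmt, Crhr2, the receptor for urocortins, measured 9.33 ± 0.92 in carcinoma and 10.42 ± 0.31 in papilloma, against 11.40 ± 0.03 in normal tissue (SD, n = 5 each). It fell by 2.07 on the log2 scale in carcinoma (SE 0.32, limma adjusted p = 6.68e-05) and fell by 0.98 in papilloma (adjusted p = 0.0247), and the papilloma call ended without papilloma array 4 (-0.86, adjusted p = 0.0665). Ggct, an enzyme of glutathione breakdown, rose by 0.59 and 0.75 (adjusted p = 0.000841 and 0.000117). Gars, a tRNA synthetase, rose by 0.43 in carcinoma (adjusted p = 0.0373), lost on removing any of normal arrays 2 to 5 or carcinoma 2 (0.39 to 0.43, adjusted p = 0.0607 to 0.0816). Its value over all single removals ranged from 0.25 to 0.52. Mindy4, with no RefSeq gene between it and Inmt, differed by 0.26 and -0.04 (adjusted p = 0.091 and 0.843). The water channel gene Aqp1 differed by -0.61 and -0.60 (adjusted p = 0.0633 and 0.072), values that depended on single arrays. Without carcinoma array 4, the value of Aqp1 carcinoma minus normal was -0.34 (adjusted p = 0.119), and that of Aqp1 papilloma minus normal was -0.60 and passed (adjusted p = 0.00607). Without papilloma array 4 the carcinoma value passed (adjusted p = 0.0375).

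Beside Stk32a, Dpysl3, which encodes a collapsin response mediator of growing neurites, rose by 1.64 in carcinoma (SE 0.28, limma adjusted p = 0.000187) and by 2.01 in papilloma (SE 0.28, adjusted p = 3.31e-05). The size of these rises depended on the processing, with 0.84 to 1.91 in carcinoma and 1.02 to 2.13 in papilloma over the alternatives. Ppp2r2b, a regulatory subunit of protein phosphatase 2A, fell by 0.93 on the log2 scale in carcinoma (adjusted p = 5.96e-05) and measured -0.22 in papilloma (adjusted p = 0.286). Jakmip2 spread widely in carcinoma (6.61 to 10.17) and fell there, with a difference of -2.35 (SE 0.57, adjusted p = 0.00344), with -1.37 in papilloma (adjusted p = 0.0798). None of the 6 had Stk32a's order of normal, carcinoma and papilloma with separate groups.

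**Figure D3:**
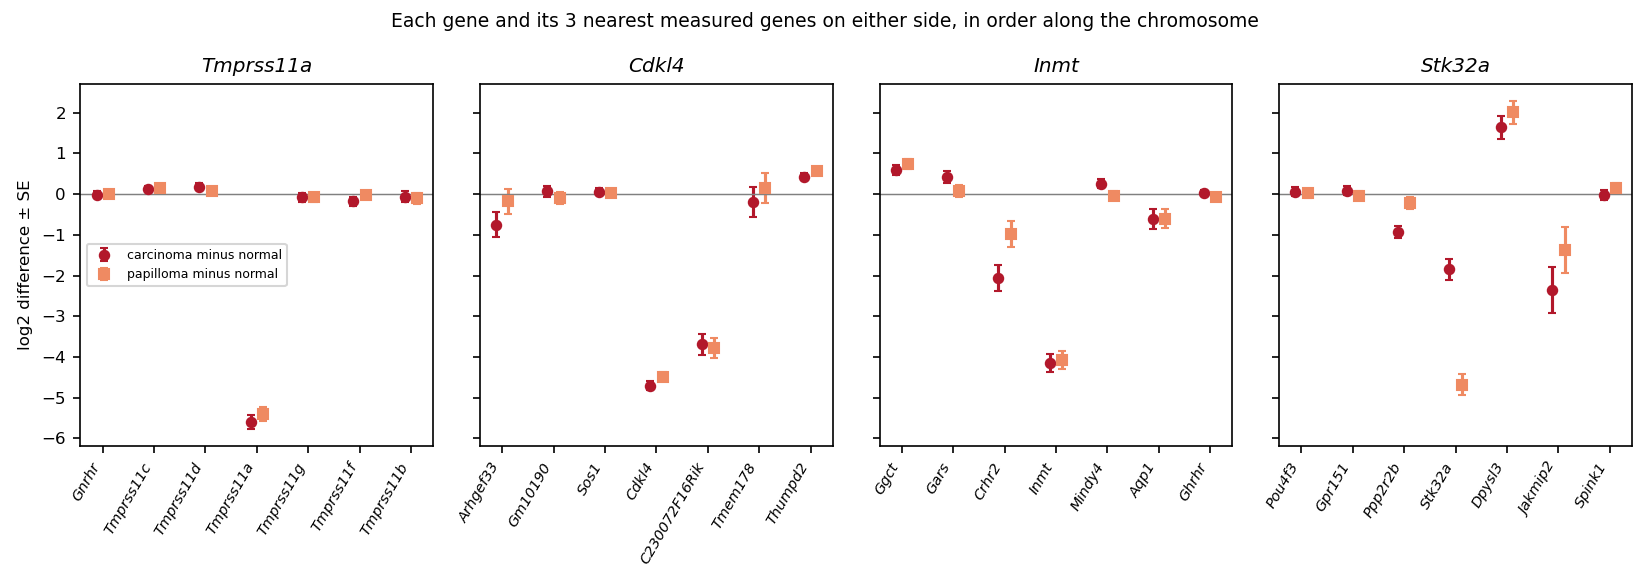
Log2 difference from normal tissue with its SE for each of the 4 genes (centre of each panel) and the 3 nearest measured genes on either side in chromosome order, carcinoma in red and papilloma in orange. The neighbours of Tmprss11a, dim in every group, lie near 0, while C230072F16Rik beside Cdkl4 (-3.69 and -3.77) and Crhr2 beside Inmt (-2.07 and -0.98) are also below 0.

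The genes whose profiles over the 15 arrays came closest were found by the root-mean-square difference of log2 values centred on each gene's own mean, leaving out predicted genes, microRNAs and olfactory or vomeronasal receptors. Any gene that is high in normal tissue and evenly low in tumours scores as close, so these values are a description without a test. For Cdkl4 the closest were Slc7a10, a carrier of small neutral amino acids (0.14), Vwa3a (0.17) and the cilia-associated adenylate kinase gene Ak7 (0.25). For Tmprss11a they were Cdkl4 itself (0.48), Slc7a10 (0.50) and Vwa3a (0.56). For Inmt they were Ltc4s, which makes leukotriene C4 (0.28), Zbbx (0.33) and the cilia and flagella gene Cfap65 (0.34).

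Stk32a lay farther from its nearest genes than Cdkl4 and Inmt did, and little farther than Tmprss11a (0.48 to 0.56). The nearest genes of Stk32a were Pltp, a phospholipid transfer protein (0.58), Matn2, an extracellular matrix protein (0.64), and Mlf1 (0.64). The distance of Stk32a to the other 3 genes was 1.38 to 1.72. Those 3 genes were 0.37 to 0.71 from one another. Pltp averaged 10.99 ± 1.09 in carcinoma, 8.82 ± 0.52 in papilloma and 12.99 ± 0.04 in normal tissue, and Matn2 8.89 ± 0.36, 7.06 ± 0.11 and 10.81 ± 0.06 in the same groups (SD, n = 5 each). The means of both thus had the order of Stk32a, with papilloma lowest. For Pltp the tumour types overlapped, as the lowest carcinoma (9.34) lay below the highest papilloma (9.58).

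**Figure D4:**
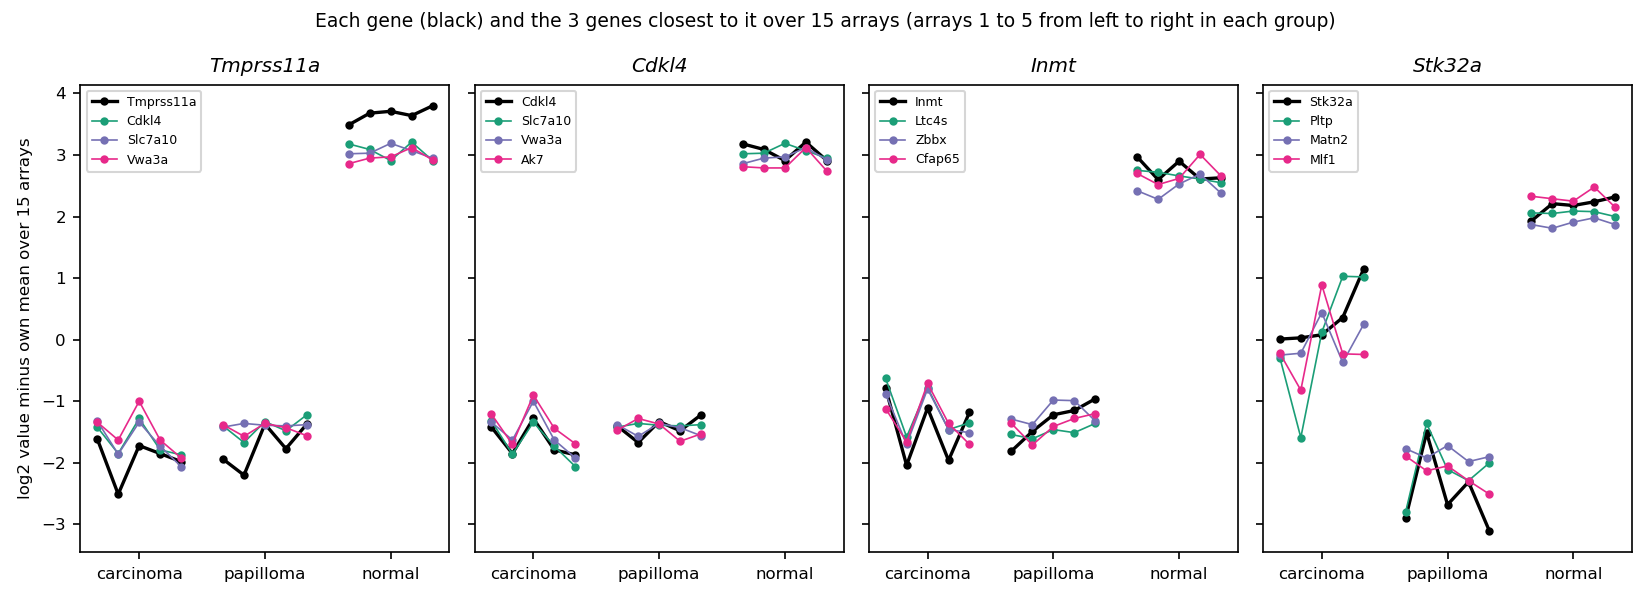
Log2 value minus the gene's own mean over 15 arrays for each of the 4 genes (black) and the 3 genes closest to it, with arrays 1 to 5 of carcinoma, papilloma and normal tissue from left to right. Cdkl4 lies almost on Slc7a10, Vwa3a and Ak7 (0.14 to 0.25 apart), whereas Stk32a is 0.58 to 0.64 from its closest genes, whose means are also lowest in papilloma.

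Markers of other cells in the tissue moved in the same comparisons, and their part in the results of the 4 genes was not tested. The 12 measured multiciliated and ependymal markers averaged 7.50 to 8.18 over the carcinoma arrays and 7.39 to 7.53 over the papilloma arrays, against 9.47 to 9.64 over the normal arrays. Of the 12, 10 fell and 2 rose in both tumour types, where 19.2% of all genes were lower in carcinoma and 16.3% in papilloma, with medians of -1.89 in carcinoma and -2.48 in papilloma. The largest fall was that of Rsph4a (-4.51 in carcinoma and -5.23 in papilloma, limma adjusted p = 2.3e-09 and 4.29e-10). The 2 that rose were Gmnc, by 1.40 and 0.93 (adjusted p = 5.66e-08 and 5.45e-06), and Mcidas, by 0.51 and 0.28 (adjusted p = 1.5e-05 and 0.00437). On all arrays of a group, 2 of the 12 lay below the dim percentile in carcinoma and 4 in papilloma, against 0 in normal tissue. Foxj1, the transcription factor that drives the motile cilia program, had the order of Stk32a: 9.89 ± 1.17 in carcinoma, 7.85 ± 0.09 in papilloma and 11.40 ± 0.10 in normal tissue (SD, n = 5 each), although its lowest carcinoma (7.96) fell within the papilloma range (7.75 to 7.99). It fell by 1.51 on the log2 scale in carcinoma (limma adjusted p = 0.00498) and was 2.03 higher in carcinoma than in papilloma (adjusted p = 0.00281).

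Markers of the epithelium itself were bright in every group, and the part of the epithelium's share in the results of the 4 genes was not tested. The 11 measured choroid plexus epithelium markers averaged 12.30 to 12.58 in carcinoma and 12.33 to 12.65 in papilloma, against 12.90 to 12.97 in normal tissue. Of the 11, 1 rose and 5 fell in carcinoma and 0 rose and 6 fell in papilloma. Over all genes 18.7% rose and 19.2% fell in carcinoma, and 17.0% and 16.3% in papilloma. The medians of the 11 were -0.51 and -0.36, far smaller in size than the differences of the 4 genes, apart from Stk32a in carcinoma (-1.85). Ttr, the transthyretin gene that marks this epithelium, measured 14.42 to 14.51 in carcinoma and 14.42 to 14.49 in papilloma, against 14.55 to 14.58 in normal tissue, near the top of the array's scale. The largest falls of the list were those of Htr2c, a serotonin receptor (-1.66 in carcinoma and -1.09 in papilloma, limma adjusted p = 1.81e-07 and 2.08e-05), and Folr1, a folate receptor (-1.19 and -0.73, adjusted p = 7.7e-06 and 0.001).

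Fibroblast and meningeal markers, 11 in number, averaged 8.35 to 8.79 in carcinoma and 8.00 to 8.64 in papilloma, against 9.40 to 9.68 in normal tissue. Of these, 2 rose and 6 fell in carcinoma and 2 rose and 7 fell in papilloma. Over all genes 18.7% rose and 19.2% fell in carcinoma, and 17.0% and 16.3% in papilloma. The largest fall was that of Lum, a proteoglycan of connective tissue, with differences of -3.57 and -3.37 (limma adjusted p = 1.2e-10 and 2.1e-10). Those that rose were Col3a1 (0.79 in carcinoma and 1.21 in papilloma, adjusted p = 0.0113 and 0.000522), Foxc1 in carcinoma (1.26, adjusted p = 0.0175) and Ogn in papilloma (0.58, adjusted p = 0.00263). All 4 pituitary markers fell in both tumour types, with list means of 6.02 to 6.21 in carcinoma and 5.94 to 6.90 in papilloma, against 7.42 to 8.79 in normal tissue. Neuron markers averaged 7.57 to 8.09 in carcinoma and 7.61 to 9.66 in papilloma, against 8.62 to 9.07 in normal tissue.

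Oligodendrocyte markers were also lower in the tumours. They averaged 7.20 to 7.86 in carcinoma and 7.27 to 8.11 in papilloma, against 8.38 to 8.80 in normal tissue. In carcinoma 6 of 6 were lower and in papilloma 4 of 6 (medians of -1.04 and -0.80), against 19.2% and 16.3% of all genes. Mural cell markers averaged 9.37 to 9.83 in carcinoma and 9.08 to 9.37 in papilloma, against 8.44 to 8.83 in normal tissue. Macrophage markers averaged 7.64 to 8.48 in carcinoma and 7.62 to 7.77 in papilloma, against 7.67 to 7.98 in normal tissue, with overlapping groups. Endothelial markers averaged 8.98 to 9.51 in carcinoma and 8.75 to 9.15 in papilloma, against 8.51 to 9.05 in normal tissue, and astrocyte markers 8.09 to 9.20 in carcinoma and 8.27 to 9.74 in papilloma, against 8.71 to 9.45 in normal tissue.

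**Figure D5:**
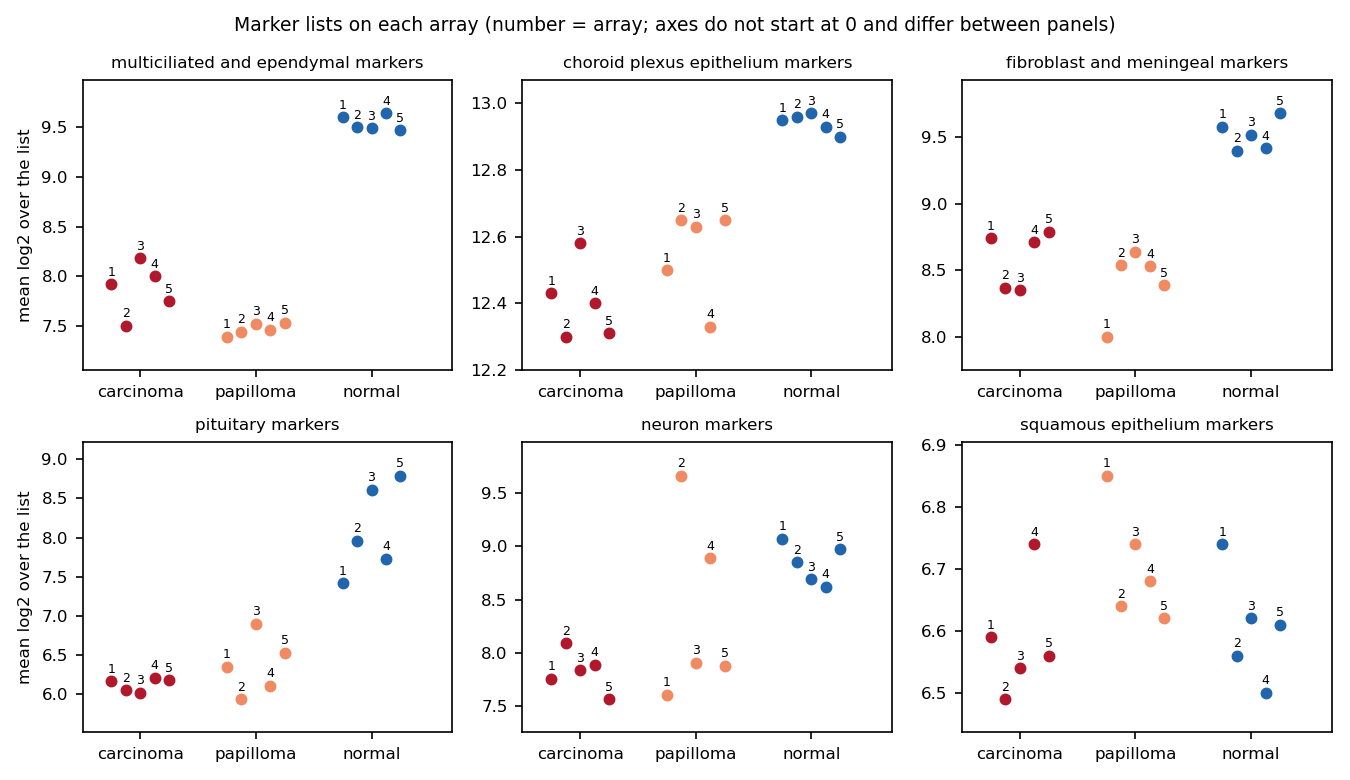
Mean log2 value over the measured genes of 6 marker lists on each array (numbered) of carcinoma, papilloma and normal tissue, with axes that do not start at 0 and differ between panels. Multiciliated, fibroblast and meningeal, and pituitary means are higher on every normal array, choroid plexus epithelium means differ by less than 1 log2 unit, and papilloma arrays 2 and 4 stand out for neuron markers (9.66 and 8.89).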

How the data were processed

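Total RNA from snap-frozen tissue was labelled with biotin and hybridised to 1 array per sample. The deposited log2 values are probe set summaries made by the authors with RMA in Affymetrix Expression Console, per the submitters' processing notes. RMA subtracts background and gives all arrays one intensity distribution, so dim probe sets show compressed differences and a change in total RNA is not seen. For the genome build of the probe sets, the sources used here name none. Arrays have no read depth, and their number limits the precision.

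Of 41345 probe sets, 23521 were paired with exactly 1 symbol, 1814 with several and 16010 with none, and 23328 of the 23521 matched the RefSeq gene table (GRCm38.p6), which gave names, chromosomes and gene order. Where a gene had several probe sets, as 1082 genes did, the one with the highest mean stood for it, which left 22180 genes. Promoters came from RefSeq on the same assembly.

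Groups were taken from the titles. Limma 3.58.1 in R 4.3.3 fitted the group as the only term on all 15 arrays (12 residual and 3.35 prior degrees of freedom). Two-sided p-values were adjusted over the 22180 genes (Benjamini-Hochberg, threshold 0.05), and the fit was tested on simulated data. Folds were computed from the log2 differences. The 4 genes and the lists of relatives and markers were chosen with earlier results of these data known. The genes named are the 4, the 3 closest profiles and the 3 nearest measured genes on each side of each, relatives and markers with the largest changes past the threshold (up to 3 in each direction), genes ranked next to the 4, and sex-linked transcripts; other list genes are named after their values were seen. Alternatives were leaving out each array, the replicate number as a block, array weights, robust moderation with a variance trend, fitting only the groups compared, quantile normalization or a common median, leaving out dim genes, averaging probe sets per gene, and testing all probe sets.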

Additional observations from a re-analysis of the deposited data

Results flagged for a closer look

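Single arrays far from the other 4 of their group, by Dixon's ratio, were found for 12 of 195 gene and group pairs checked; chance alone flags about 1 in 20 such groups, and none of the 12 groups of the 4 genes was among them. In carcinoma these were Gnmt on array 2 (9.09, the others 9.90 to 10.12), Tph1 on array 3 (5.71, the others 5.98 to 6.06) and Aqp1 on array 4 (11.08, the others 12.26 to 12.49). In papilloma they were Slc47a1 (7.44, the others 6.90 to 7.05) and Prl (7.74, the others 5.32 to 5.79), both on array 3. Normal array 4 was high for 3 cilia genes, Ak7 (11.26), Cfap52 (12.34) and Hydin (9.69, the others 9.16 to 9.23). Normal array 5 was low for Mok (9.92) and Maoa (9.06), normal array 1 high for Mat2b (9.50) and normal array 2 low for Jakmip2 (10.72).

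Of the relatives, neighbours and markers that were also run through the alternatives, 11 differed between the tumour types (carcinoma minus papilloma, limma adjusted p under 0.05). Of all genes 11.4% passed there. Further marker genes that were not run through the alternatives passed too, such as Col1a2 (1.16, adjusted p = 0.000413), Pdgfrb (0.77, adjusted p = 0.00178) and Aldh1l1 (-1.31, adjusted p = 0.00126). Among the 11, Foxj1 differed by 2.03 (adjusted p = 0.00281), Cfap52 by 1.12 (adjusted p = 0.0104), Nnmt by 0.47 (adjusted p = 0.0135), Gamt by -0.59 (adjusted p = 0.0141), Hnmt by -1.33 (adjusted p = 0.0161) and Ppp2r2b by -0.72 (adjusted p = 0.00374). The calls of Foxj1 and Ppp2r2b were kept under all 26 alternatives. Those of Cfap52 and Hnmt were lost under 2 alternatives each and those of Nnmt and Gamt under 1 each, none of them the removal of a single array. For the other 5 the call ended without single arrays. Tmprss6 differed by 1.03 (0.80 to 1.05 and adjusted p = 0.0503 to 0.0842 without normal array 2 or 3, carcinoma array 2, 3 or 5 or papilloma array 1, 3, 4 or 5). Cdkl2 differed by -0.42, a call that ended without any one array except carcinoma array 3 (-0.45 to -0.32, adjusted p = 0.0531 to 0.101). Gnmt differed by -0.71 (-0.64 to -0.61 and adjusted p = 0.0512 to 0.0557 without papilloma array 3 or 4). Tph1 differed by -0.26 (-0.26 to -0.19 and adjusted p = 0.05 to 0.0858 without normal array 4, carcinoma array 2 or 3 or papilloma array 1, 3, 4 or 5). Crhr2 differed by -1.09 (-1.11 to -0.80 and adjusted p = 0.0556 to 0.0891 without carcinoma array 1, 2 or 4 or papilloma array 1, 2, 3 or 5).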

How the results depend on the processing

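Over 26 alternatives the differences of the 4 genes from normal tissue kept their direction and moved little: -5.68 to -5.45 and -5.48 to -5.22 for Tmprss11a in carcinoma and papilloma, -4.80 to -4.58 and -4.58 to -4.38 for Cdkl4, -4.31 to -3.91 and -4.16 to -3.95 for Inmt, and -2.05 to -1.77 and -5.07 to -4.53 for Stk32a. Carcinoma minus papilloma stayed at 2.62 to 3.22 for Stk32a, and without single arrays at -0.32 to -0.06 for Tmprss11a and -0.31 to -0.16 for Cdkl4, never past the threshold; for Inmt it ran from -0.24 to 0.12. Without single arrays the genes past the threshold numbered 7703 to 8745 for carcinoma against normal, 6703 to 7829 for papilloma against normal and 1882 to 3038 for carcinoma against papilloma. The last count, 2530 with all arrays, was 1329 with only the groups compared, which uses fewer arrays, and 1587 without papilloma arrays 2 and 4, chosen after seeing the data. Arrays with the same replicate number did not deviate together (correlations -0.10 to 0.14), and with that number as a replicate block the counts were 8220, 7180 and 2268. No call reversed, while changes of sign in differences that did not pass were not counted as reversals. Of 165 results, 22 lost a call under some alternative. The 165 include results given without a test and results never called, so 22 of 165 is not the share of calls lost. The dim range limits the folds of Tmprss11a and Cdkl4, whose tumour values all lie in it, and their comparison between the tumour types. It also limits the folds of Stk32a in papilloma, where 1 of 5 arrays exceeded it, and of Inmt on 2 carcinoma arrays.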
